A study of Homo sapiens with 2 samples.

Results

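Tubulin isotypes were the genes that encode the alpha and beta subunits of microtubules. The 10 genes were chosen by symbol (TUBA1A, TUBA1B, TUBA1C, TUBA4A, TUBB, TUBB2A, TUBB2B, TUBB3, TUBB4B and TUBB6), 4 of them alpha and 6 beta, out of 27685 genes in the gene table, and they had 32 of the 63714 listed transcripts. The study deposited 1 RNA-seq library of untreated H2087 cells and 1 of untreated H596 cells, 2 established human cell lines that both carry the label lung adenocarcinoma and were grown in RPMI medium with fetal bovine serum. No treatment or genetic change was applied to either line. Each level is an FPKM value (fragments mapped to a transcript, relative to how long it is and how many were mapped in all), a unit that allows genes of different length to be compared within a library.

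The estimated counts summed to 46961500 in H2087 and 55387847 in H596. With 1 library per cell line there was no replicate check and no test, so every difference below describes these 2 libraries. The 95% Wilson intervals are for a gene's share of the counts, carried over to FPKM, and they cover counting error only. They are too narrow if both mates of a read pair were counted. All 5 epithelial markers were detected in both lines. EPCAM, KRT8 and KRT18 were at least 2-fold lower in H596, with KRT8 at an FPKM of 2493 (H2087) and 536 (H596), KRT19 was higher (561 and 2183), and CDH1 was similar (52.3 and 59.6). NKX2-1, a lung adenocarcinoma transcription factor gene, had an FPKM of 110.0 (H2087) and 0.508 (H596), while TP63, which marks squamous cells, had 0.183 in H2087 and 55.2 in H596. SFTPB, a surfactant gene, was low in both, with 22 counts in H2087 and 0 in H596. The label of H596 was therefore not matched by NKX2-1, and the lines are called by their names here.

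Alpha and beta tubulin form a stable heterodimer, and heterodimers join end to end into the protofilaments of the microtubule wall. Each subunit is made from several genes whose products are alike in the folded body and differ most in a short acidic tail at the carboxyl end. This tail faces outwards, binds motors and other partners and carries most tubulin modifications. The mRNAs are also under autoregulation, in which the first residues of the growing chain are read by TTC5 when free tubulin is in excess.

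The coding ends of 4 beta genes are shown because these isotypes made up most of the beta mRNA or differed most between the lines, and because they encode the tail. Each line gives the last 63 coding bases of GRCh37 in the sense direction, 5′ to 3′, from the GENCODE representative transcript, with the last sense codon and the stop codon in capitals.
TUBB: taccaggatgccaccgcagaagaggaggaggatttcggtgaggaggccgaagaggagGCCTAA
TUBB3: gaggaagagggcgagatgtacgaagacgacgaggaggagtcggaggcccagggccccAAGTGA
TUBB4B: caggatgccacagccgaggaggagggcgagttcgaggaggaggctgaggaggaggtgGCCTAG
TUBB6: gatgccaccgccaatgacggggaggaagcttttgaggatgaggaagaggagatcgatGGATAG

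The last sense codon encodes alanine in TUBB and TUBB4B, lysine in TUBB3 and glycine in TUBB6. At the other end of the coding sequence, the 10 genes begin with 1 of a few variants of the 4 codons for the residues that autoregulation reads. The first 30 coding bases of a major alpha and a major beta gene are shown with these codons in capitals.
TUBA1B: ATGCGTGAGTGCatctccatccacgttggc
TUBB4B: ATGAGGGAAATCgtgcacttgcaggccggg

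Over the whole coding sequence, pairs of alpha genes were 84.4% to 97.2% identical in bases and pairs of beta genes 81.0% to 98.1%. TUBB2A and TUBB2B were the closest pair, and they shared an unbroken run of 725 bases. Such likeness bears on how reads were assigned. Of all 100-base windows of the representative TUBB2A transcript, 55.6% also occurred in an annotated transcript of a gene at another locus, as did 48.7% for TUBB2B and 37.2% for TUBA1B. The share was 18.1% for TUBA1A, 12.3% for TUBA1C, 5.42% for TUBB, 5.35% for TUBB3 and 3.01% for TUBB4B, and it was 0 for TUBA4A and TUBB6. With 50-base windows the share was 64.6% for TUBB2A, 62.7% for TUBA1B, 54.9% for TUBB2B, 38.9% for TUBA1A and 26.75% for TUBA1C. It was 19.3% for TUBB, 10.4% for TUBB4B, 9.23% for TUBB3, 1.09% for TUBB6 and 0 for TUBA4A. The read length and the treatment of reads with several positions were not given in the sources used here. Levels of TUBB2A, TUBB2B, TUBA1A, TUBA1B and TUBA1C are therefore less certain than their intervals. Those of TUBB3, TUBB4B, TUBB6 and TUBA4A rest mostly on sequence of their own. With 50-base windows TUBB lies between these groups.

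The alpha isotypes had the same order and nearly the same proportions in both lines, but their summed level was higher in H2087. Their FPKM values summed to 1845 in H2087 and 809 in H596, a 2.28-fold difference. Fewer cells making an mRNA and less of it per cell cannot be told apart in bulk RNA. TUBA1B (gene 10376, chromosome 12 of hg19 from 49521567 to 49525304), a broadly expressed alpha gene, had an FPKM of 1007 (95% interval, 1000.5 to 1014) in H2087 and 459 (455 to 464) in H596. It was the highest of the 10 genes in both libraries and ranked 63 among all genes in H2087 and 111 in H596.

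TUBA1C (gene 84790, chromosome 12 from 49621709 to 49667121), also broadly expressed, had an FPKM of 733 (727 to 739) in H2087 and 305 (302 to 309) in H596. TUBA1A (gene 7846, chromosome 12 from 49578578 to 49583107), the main alpha gene of developing neurons, had 61.2 (59.7 to 62.7) and 23.5 (22.7 to 24.3). TUBA4A (gene 7277, chromosome 2 from 220114433 to 220119330), whose product is abundant in platelets, had 43.9 (42.6 to 45.2) and 20.5 (19.7 to 21.3). The intervals of the cell lines did not overlap for any alpha gene. They cover counting error only and are narrow at this depth, so those of TUBB were also separate at 1.18-fold. The share of all genes with separate intervals was not computed. The order was TUBA1B, TUBA1C, TUBA1A and TUBA4A in each library, and neighbours in this order had separate intervals.

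As shares of the alpha total, TUBA1B made up 54.6% (54.3 to 54.8) in H2087 and 56.8% (56.4 to 57.1) in H596. TUBA1C made up 39.7% and 37.8%. TUBA1A had 3.32% and 2.90%, and TUBA4A had 2.38% and 2.53%. The largest of these changes, that of TUBA1B, was 2.20 percentage points, so the alpha total differed far more than its composition.

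The beta isotypes behaved the other way, with similar totals and different composition. Their FPKM values summed to 625 in H2087 and 575 in H596, a 1.09-fold difference. TUBB4B (gene 10383, chromosome 9 from 140135711 to 140138159), a class IVb gene found in most tissues and in cilia, was the highest beta gene in both libraries. Its FPKM was 323 (319 to 327) in H2087 and 379 (375 to 383) in H596. TUBB (gene 203068, chromosome 6 from 30687978 to 30693203), the constitutive class I gene, came next with 156 (153 to 158) in H2087 and 132 (130.1 to 134) in H596.

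TUBB3 and TUBB6 exchanged places in the order. TUBB3 (gene 10381, chromosome 16 from 89988417 to 90002505), the class III gene that is used as a marker of neurons and is studied in tumors treated with taxanes, had an FPKM of 121 (119 to 124) from 10284 counts in H2087. In H596 it had 8.85 (8.29 to 9.45) from 893 counts, so it was 13.7-fold lower. TUBB6 (gene 84617, chromosome 18 from 12307668 to 12329824), the class V gene, had an FPKM of 17.0 (16.1 to 17.8) in H2087 and 46.9 (45.6 to 48.2) in H596, so it was 2.76-fold higher. TUBB3 was thus number 3 among the 6 beta genes in H2087 and number 4 in H596, and TUBB6 the reverse.

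The class II genes were low in both lines. TUBB2A (gene 7280, chromosome 6 from 3153901 to 3157783) had an FPKM of 4.51 (4.07 to 5.01) in H2087 and 5.26 (4.82 to 5.75) in H596, and these intervals overlapped. TUBB2B (gene 347733, chromosome 6 from 3224495 to 3227968), mostly neuronal, had 4.22 (3.83 to 4.65) and 2.60 (2.32 to 2.91). The 2 genes could not be ordered in H2087, where their intervals overlapped, whereas in H596 TUBB2A was above TUBB2B. This pair shares the most sequence, as given above, so the division between them is uncertain.

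**Figure D1:**
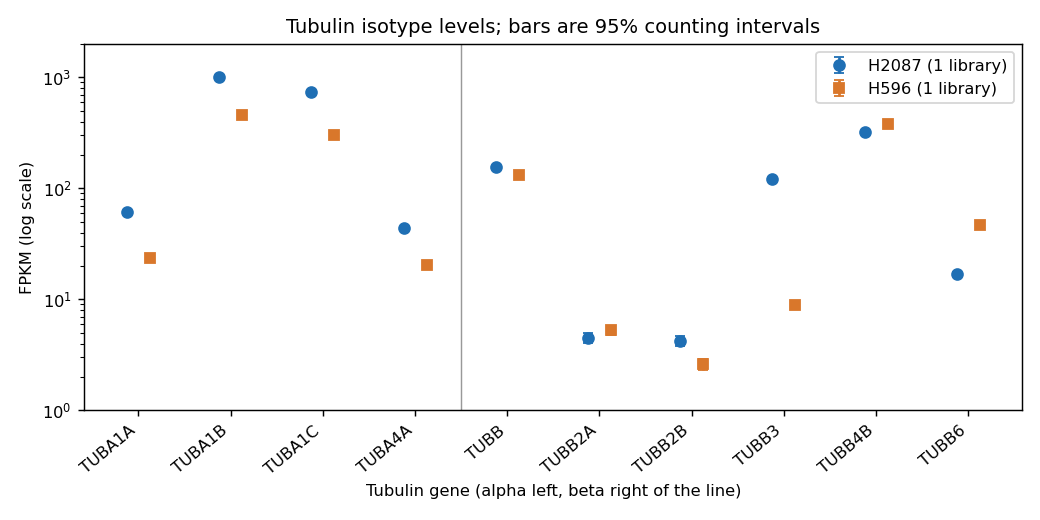
FPKM of each isotype on a log axis in H2087 (circles) and H596 (squares), 1 library each, with bars for the 95% counting interval, most of them smaller than the symbol. All 4 alpha genes lie lower in H596, while among the beta genes TUBB3 is 121 against 8.85 and TUBB6 is 17.0 against 46.9.

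As shares of the beta total, TUBB4B made up 51.6% (51.1 to 52.1) in H2087 and 66.0% (65.5 to 66.4) in H596. TUBB made up 24.9% (24.6 to 25.2) and 23.0% (22.7 to 23.2). This share depends on how TUBB is measured, since it was 34.3% and 30.9% by counts and 20.9% and 9.58% by the highest transcript of each gene. The highest transcript was taken in each library separately, and for TUBB it was not the same one. TUBB3 made up 19.4% (19.0 to 19.7) of the beta FPKM in H2087 and 1.54% (1.44 to 1.64) in H596. TUBB6 made up 2.71% (2.58 to 2.85) and 8.15% (7.93 to 8.37). TUBB2A and TUBB2B together stayed small, at 0.722% and 0.675% in H2087 and 0.916% and 0.452% in H596. The share of TUBB3 was lower in H596 by 17.8 points, which was set against 14.4 more points of TUBB4B and 5.44 more of TUBB6.

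**Figure D2:**
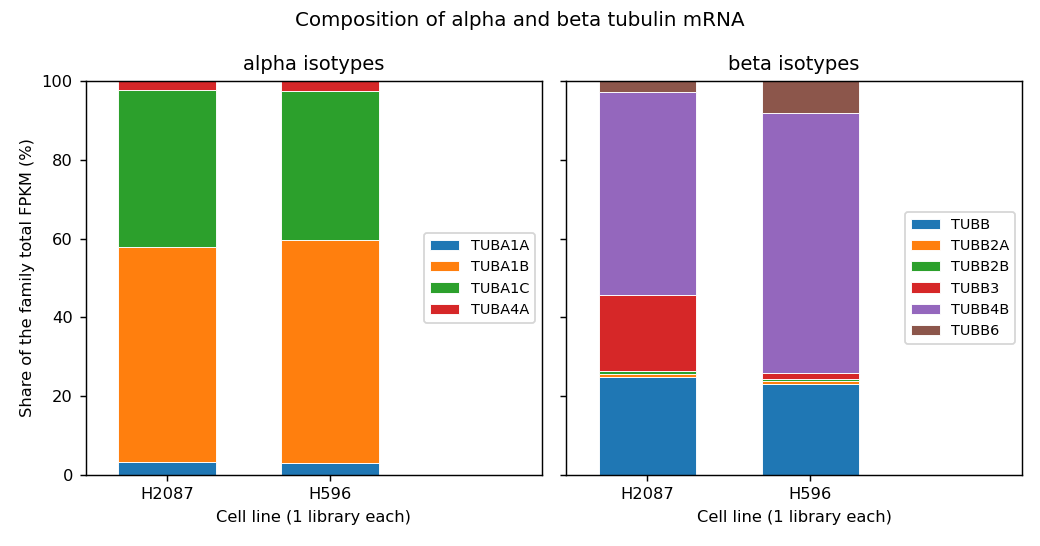
Stacked bars of each isotype's share (%) of the summed FPKM of the alpha genes (left) and beta genes (right) in each cell line. The alpha bars are nearly alike, with TUBA1B at 54.6% and 56.8%, and the beta bars differ in TUBB3 (19.4% and 1.54%) and TUBB4B (51.6% and 66.0%).

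Because the alpha total differed and the beta total hardly did, the ratio of alpha to beta FPKM was 2.95 in H2087 and 1.41 in H596. By estimated counts it was 2.70 and 1.34. All 10 genes together held 0.446% of all H2087 counts and 0.250% of all H596 counts.

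On the log2(FPKM + 1) scale, 5 of the 10 isotypes were at least 2-fold lower in H596 and 1 was at least 2-fold higher. Among the lower ones, TUBA1A, TUBA1B and TUBA1C lie side by side and share much sequence, so they are not independent. All 10 had a mean FPKM over both libraries of at least 1. Among the 13047 genes at that level, 14.2% were at least 2-fold lower and 18.2% at least 2-fold higher, and the median difference was 0.12. Among the 680 genes whose mean FPKM reached 100, to which TUBA1B, TUBA1C, TUBB4B and TUBB belong, 22.5% were at least 2-fold lower, 12.2% at least 2-fold higher, and the median was -0.30. The median over the isotypes was -0.80.

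The differences, H596 minus H2087, were -3.63 for TUBB3, -1.34 for TUBA1A, -1.26 for TUBA1C, -1.13 for TUBA1B and -1.06 for TUBA4A. They were -0.54 for TUBB2B, -0.24 for TUBB, 0.18 for TUBB2A, 0.23 for TUBB4B and 1.41 for TUBB6. The alpha genes lay close to the 2-fold line. When FPKM was rescaled to TPM (values with the same sum in every library), TUBA1B had -0.95 and TUBA4A -0.90, and 3 isotypes were at least 2-fold lower. TMM scaling with edgeR shifted log2 FPKM by -0.13, and 5 isotypes were at least 2-fold lower.

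**Figure D3:**
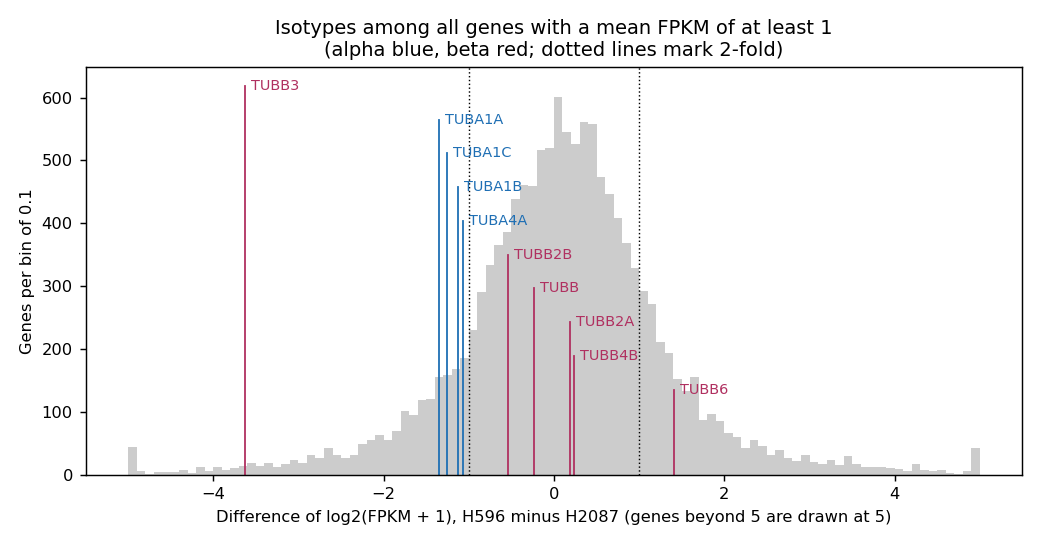
Histogram of differences on the log2(FPKM + 1) scale (H596 less H2087) over the 13047 genes whose mean FPKM reached 1 (gray), with a line for each isotype (alpha blue, beta red, heights only for legibility) and dotted lines at 2-fold. TUBB3 lies far out at -3.63, the 4 alpha genes sit together between -1.34 and -1.06, and TUBB6 lies at 1.41.

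Other neuronal genes were looked at beside TUBB3. Of the 9 neuronal and neuroendocrine markers, CHGA, INSM1 and ELAVL4 had 0 counts in both libraries. ENO2, a neuronal enolase gene that many tumors express, had an FPKM of 21.3 (H2087) and 1.40 (H596). SNAP25 had 1.20 in H2087 and 0.0226 in H596, and CHGB had 0.126 and 0. SYP went the other way with 0.120 and 0.823, and NCAM1 had 0 counts in H2087 and 17 in H596. The summed FPKM of the 9 markers, most of it from ENO2, was 22.8 and 2.298. Their part in the TUBB3 difference was not tested. Of 7 motile cilia markers, FOXJ1 had an FPKM of 9.07 (H2087) and 0.331 (H596), and DNAH5 had 7.90 and 0.236. RSPH1 had 1.01 and 1.41, and DNAH9, DNAI1, CCDC39 and TPPP3 were below 1 in both. The 7 summed to 18.7 in H2087 and 2.45 in H596, whereas TUBB4B was slightly higher in H596, and their part in its level was not tested. The 6 fibroblast, 4 leukocyte and 3 endothelial markers summed to 3.97, 0.514 and 0.413 in H2087 and to 10.7, 0.157 and 0.816 in H596. None of 5 genes of cycling cells differed 2-fold, and their summed FPKM was 404 and 451.

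The transcripts of TUBB differed in make-up more than its total. Its 7 listed transcripts begin at 1 of 2 positions 1348 bases apart, with 4 at the first base 30687978 and 3 at 30689326. In H2087 the transcripts of the first start had an FPKM of 149 and those of the second 6.86. In H596 they had 98.5 and 33.5. The second start thus held 4.41% of the TUBB FPKM in H2087 and 25.4% in H596. In counts this was 4.51% (95% interval, 4.23 to 4.81) and 27.7% (27.1 to 28.4). The second start lies 1042 bases after the first base of the annotated start codon, so transcripts from it lack that codon.

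Single TUBB transcripts differed more. NM_178014 had an FPKM of 121 in H2087, or 77.9% of the gene, and 40.1 in H596, or 30.4%. NM_001293213 had 13.3 and 45.01, and NM_001293215, of the second start, had 6.84 and 33.0. Transcripts of 1 gene share most of their exons, and the error of dividing reads between them is not in the intervals. Of the 6 isotypes with several transcripts and a mean FPKM of at least 10, TUBB was the only one whose largest H2087 transcript changed its share by 25 points or more. Among all 4446 genes of this kind, 11.9% did.

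**Figure D4:**
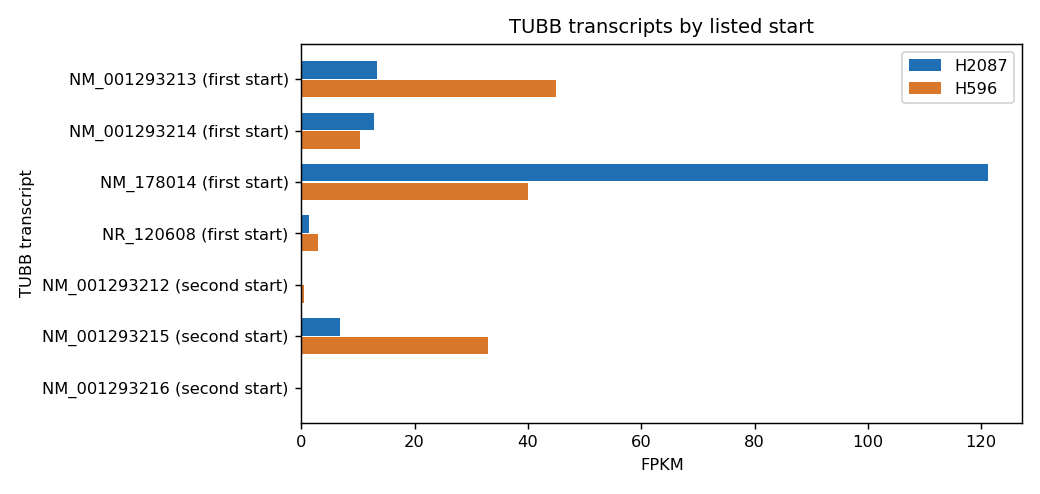
FPKM of the 7 listed TUBB transcripts in H2087 and H596, ordered by start. NM_178014 is the longest bar in H2087 at 121 and stands at 40.1 in H596, where NM_001293213 (45.01) and NM_001293215 of the second start (33.0) are higher than in H2087.

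The 150 bases before each listed TUBB start are given to show how unlike they are. The GENCODE representative transcript of TUBB begins further downstream than the first listed start, at 30688129. The first window is therefore not the sequence next to that start, which was not examined. They are read from GRCh37 on the plus strand, and capitals mark matches on either strand to the CCAAT box motif, to TATAAA (the TATA box) or to GGGCGG, a GC box, none of which overlap here. The first window is chr6:30687828-30687977 and the second chr6:30689176-30689325.
First start: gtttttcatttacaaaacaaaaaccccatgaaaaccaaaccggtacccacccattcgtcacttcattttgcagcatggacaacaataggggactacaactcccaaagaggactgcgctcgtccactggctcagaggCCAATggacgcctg
Second start: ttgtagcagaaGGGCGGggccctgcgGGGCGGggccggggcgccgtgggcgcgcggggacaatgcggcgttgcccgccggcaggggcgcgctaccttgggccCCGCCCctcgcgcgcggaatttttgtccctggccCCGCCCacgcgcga

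The window before the first start had a GC content of 48.7% and 1 match to CCAAT. The window before the second had a GC content of 78.7% and 4 matches to GGGCGG. Neither had TATAAA. Of the 35116 RefSeq promoters of GRCh38.p14, 23.5% held CCAAT, 36.8% GGGCGG and 6.71% TATAAA in the 150 bases before the start.

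In the other isotypes the transcripts were more alike between the lines. NM_006009 held 60.2% of the TUBA1A FPKM in H2087 and 47.4% in H596, and NM_001270399, of the same start and end, held the rest. For TUBB3, NM_006086 held 96.7% and 87.2%, and without the longer NM_001197181 the TUBB3 difference was 15.2-fold. NM_032525 held 67.6% and 64.4% of TUBB6. Another TUBB6 transcript, NM_001303525, overlaps AFG3L2, which itself had an FPKM of 21.9 (H2087) and 48.2 (H596). Without this transcript TUBB6 had 14.4 and 35.2, still a 2.45-fold difference. TUBA4A overlaps STK16, which had 10.9 and 9.41.

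TUBA1B, TUBA1A and TUBA1C lie side by side on chromosome 12, and the genes around them were lower in H596 as well. The 10 other genes before the cluster and the 10 after it, among those whose mean FPKM reached 1, span 49223539 to 50419340. Of these 20, 17 had a difference below 0 and 11 were at least 2-fold lower, with a median of -1.14. The low values were on both sides of the cluster. FKBP11 had an FPKM of 36.9 (H2087) and 2.50 (H596), ARF3 had 107 and 44.8, and TROAP had 48.8 and 18.8. PRKAG1, NCKAP5L and BCDIN3D were the exceptions, with differences of 0.32, 0.05 and 0.61. Of 12542 genes with 20 such neighbours, 0.566% had a median as low. These sets of neighbours overlap and include genes of this same region, so they are not independent. The other isotypes were not ranked in this way. TUBA4A, on chromosome 2, had a difference of -1.06 where its 20 neighbours had a median of -0.21.

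**Figure D5:**
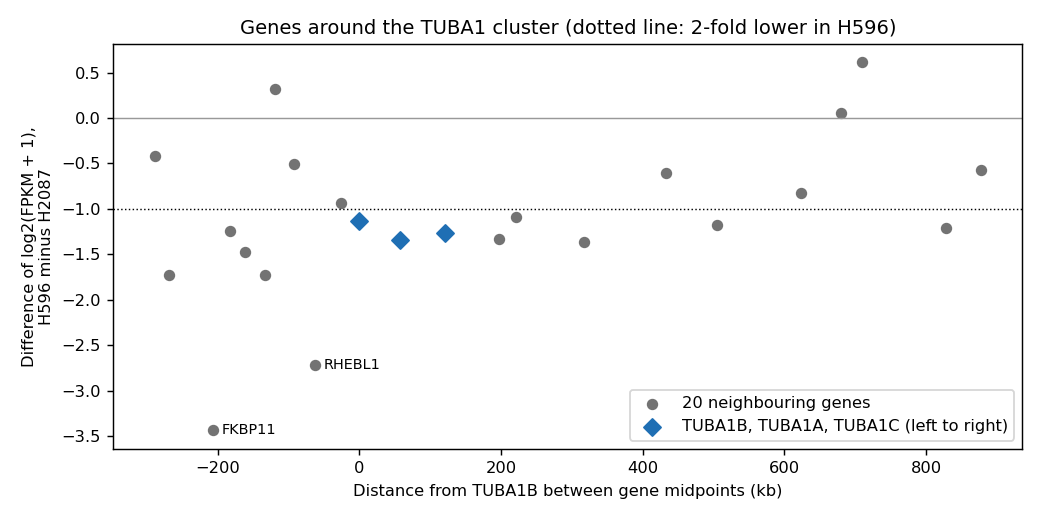
Difference on the log2(FPKM + 1) scale (H596 less H2087) of the TUBA1 genes (diamonds) and 20 neighbours, 10 on each side (gray), against the distance from TUBA1B in kb. The TUBA1 genes lie between -1.34 and -1.13 amid neighbours of which 17 are below 0.

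The beta genes lie on 4 chromosomes, and each is set beside its neighbours here. TUBB3 had a difference of -3.63 and its 16 neighbours a median of -0.0029, with fewer than 10 such genes beyond it on the chromosome. TUBB had -0.24 where 18 of 20 neighbours were above 0, with a median of 0.75. The neighbours of TUBB2A and TUBB2B, which are the same genes, had a median of 0.72. TUBB4B had 0.23 against a median of -0.26. TUBB6 had 1.41 and its 20 neighbours a median of 0.78, with 7 at least 2-fold higher, 1 at least 2-fold lower and 3 in all below 0.

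The other tubulin genes added little to the alpha and beta totals. TUBA3C, TUBA3D, TUBA3E, TUBA4B and TUBB1, the last a platelet gene, had 0 counts in both libraries, and 3 counts are the limit that a count of 0 allows. TUBA8 had an FPKM of 0.496 (H2087) and 0.299 (H596), TUBAL3 0.0318 and 0.385, and TUBB8 0.730 and 0.0466. TUBB4A, a class IVa gene of neurons and oligodendrocytes, had 2.06 from 253 counts in H2087 and 0.0401 from 6 counts in H596. TUBG1, which encodes the gamma-tubulin that nucleates microtubules, had 41.2 and 33.7, and its paralog TUBG2 had 18.0 and 18.2. TUBE1, of centrioles, had 6.74 and 8.68. TUBD1, also of centrioles, had 2.79 and 7.56. Of the 13 genes, 5 had a mean FPKM of at least 1. Of these, 1 was at least 2-fold higher and 1 lower, beside 18.2% and 14.2% of all genes.

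Of all 106 listed genes that act on tubulin or belong to its family, 79 had a mean FPKM of at least 1. Of these, 17 (21.5%) were at least 2-fold lower in H596 and 7 (8.86%) at least 2-fold higher, beside the 14.2% and 18.2% of all genes. With TPM the split was 13 lower and 9 higher, beside 12.9% and 24.6% of all genes. With TMM it was 22 lower and 6 higher, beside 16.3% and 15.7%. The chaperonin CCT and prefoldin hand over and fold new tubulin chains. Of the 16 listed genes, which are those of their subunits and PDCL3, 5 were at least 2-fold lower and 1 higher. The median was -0.92. Many of these genes are high. Among the 680 genes whose mean FPKM reached 100, 22.5% were lower, 12.2% were higher and the median was -0.30. CCT3 had an FPKM of 348 (H2087) and 184 (H596), CCT4 had 251 and 83.1, and CCT6B, a testis form, had 0.420 and 2.63.

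Of the 7 tubulin cofactor genes, 2 were at least 2-fold lower and 1 higher. For this list and those below, the shares of all genes are the 14.2% lower and 18.2% higher given above. TBCA, which binds beta-tubulin on its way to the heterodimer, had an FPKM of 226 (H2087) and 84.4 (H596). TBCC, which acts at the last step of heterodimer assembly, had 8.53 and 24.8. Of the 9 gamma-tubulin ring complex genes, 3 were at least 2-fold lower and 0 higher. MZT2A had 83.9 and 28.3 and MZT2B, a near copy of it, had 104 and 35.996, so the 2 are not independent. Among the 3 autoregulation genes none reached 2-fold. CNOT11, a subunit of the deadenylase complex, had 30.6 and 31.6, and TTC5, which binds the first residues of new tubulin chains, had 17.7 and 9.77.

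Of the listed tyrosination and detyrosination genes, 2 had a mean FPKM of at least 1. TTL, the ligase that adds tyrosine to the alpha tail, was at least 2-fold lower, with an FPKM of 14.0 (H2087) and 5.89 (H596). SVBP had 10.2 and 10.7. Below that mean, VASH1 had 1.01 and 0.221 and VASH2 had 1.42 and 0.0235. Of the 9 genes in the glutamylation and glycylation list with a mean FPKM of at least 1, 1 was at least 2-fold lower and 1 higher. The list was not limited to genes with a shown activity. TTLL12 had 64.8 and 24.2, and TTLL7, a glutamylase that prefers beta-tubulin, had 0.305 and 2.16. Of the 3 acetylation genes, 2 were at least 2-fold higher and both encode deacetylases. SIRT2 had 9.20 and 24.4, and HDAC6 had 8.35 and 18.8, while the acetyltransferase gene ATAT1 had 5.77 and 6.64.

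Of the 10 genes of microtubule-associated proteins and stathmins at that level, 2 were at least 2-fold lower and 0 higher. Both are best known from neurons. MAP1B had an FPKM of 8.30 (H2087) and 1.11 (H596), and MAP2 had 5.31 and 0.609. STMN1, which sequesters free heterodimers, was the highest of the list with 149 and 171. Of the 15 plus-end and dynamics genes, 2 were at least 2-fold lower and 1 higher. MAPRE2, an end-binding protein gene, had 2.58 and 19.1, and its relative MAPRE1, the highest of the list, had 90.7 and 109.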

How the data were processed

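Total RNA of untreated H2087 and H596 cells (1 library each) was made into stranded mRNA libraries. The authors aligned the reads to hg19 using HISAT2 2.0.5 and estimated abundances with StringTie 1.3.3b. The submitters' processing notes also name bcl2fastq 1.8.4 and Trimmomatic. They deposited tables of genes and transcripts with an estimated count, given as whole numbers, and an FPKM value for each library. The estimated counts deposited by the authors were used for intervals, and the FPKM values deposited by the authors, relative to transcript length and library size, for levels. For the isotypes, gene FPKM equalled the sum over transcripts to within 7.11e-15 FPKM.

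The difference was log2(FPKM + 1), H596 minus H2087, which understates changes of low genes. It was read among genes whose mean FPKM reached 1, keeping the higher row of a repeated symbol. Called means at least 2-fold. Shares are of the summed FPKM of the 4 alpha or 6 beta genes. Wilson intervals were computed with scipy 1.17.1. Total counts, 46961500 and 55387847, set that precision. Positions are those of the deposited tables. Coding sequences came from GENCODE release 44 mapped to GRCh37, and identity from Biopython 1.88. Windows of 50 and 100 bases were compared with all its transcripts on both strands, leaving out genes that overlap the isotype. Amino acid sequences were not used here.

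The isotypes and the lists were chosen with earlier results of these data known. From the isotypes and other tubulin genes all were named. From each further list the gene with the highest mean FPKM and the largest difference past 2-fold in each direction were named. TTC5, HDAC6, ATAT1, MAP2, all marker genes and neighbouring or overlapping genes named were chosen after their values were seen, and the lung adenocarcinoma and squamous markers were added then. TTLL13 was not found under that symbol. Some genes and sequences that these rules would name are not reported here. The alternatives were other pseudocounts, filters and transcript choices, TPM, TMM (edgeR 4.0.16) and size factors (DESeq2 1.42.0).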

Additional observations from a re-analysis of the deposited data

How the results depend on the processing

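No called isotype changed sign under any alternative. No paired analysis was possible because there were only 2 libraries, 1 of each line, and none could be left out for the same reason. The number of isotypes at least 2-fold lower in H596, 5 as deposited, was 3 with TPM, where TUBA1B and TUBA4A no longer reached 2-fold, and 5 in every other planned setting. By the highest transcript TUBB, at -1.41, was counted in place of TUBA4A. The highest transcript was taken in each library separately, so for TUBB NM_178014 in H2087 was set against NM_001293213 in H596. The median difference of the isotypes, -0.80, was -0.89 with a pseudocount of 0.1, -0.68 with TPM, -0.92 with TMM scaling, -0.90 with DESeq2 size factors, -0.92 with centring and -1.05 by the highest transcript. Scaling shifted log2 FPKM by 0.18 for TPM, -0.13 for TMM and -0.12 for DESeq2.

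The share of TUBA1B was 55.3% by counts and 55.4% by the highest transcript in H2087, and 57.4% and 57.6% in H596. The share of TUBB4B was 43.4% and 55.5% in H2087, and 57.9% and 80.8% in H596, and the cause was not tested. TUBB3 held 18.2% to 20.2% of the beta total in H2087 and 1.51% to 1.64% in H596 over all settings. With a mean FPKM of at least 10, where fewer genes were examined, 12 pathway genes were at least 2-fold lower and 4 higher, beside 14.0% and 15.6% of all genes. The number of pathway genes at that level was not counted, so no share of them is given. DESeq2 size factors gave 22 lower and 6 higher, beside 16.0% and 16.0% of all genes. Centring also gave 22 lower and 6 higher, beside 16.2% and 15.7%.

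Other fold limits were chosen after seeing the data. At 3-fold, 1 isotype was lower (TUBB3) and 0 higher, and 3 pathway genes were lower and 1 higher, beside 7.33% lower and 8.76% higher of all genes. At 1.5-fold, 27 pathway genes were lower and 12 higher, beside 24.0% and 30.6%. Depth limits the comparison of TUBB2A between the lines and its order against TUBB2B in H2087.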
